A study of Mus musculus with 6 samples.

Results

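The nuclear genes of respiratory complexes II to V were followed in cultured group 2 innate lymphoid cells (ILC2) from the brains of young and old mice. Members were chosen by name, with earlier results of these data known. The names were Sdha, Sdhb, Sdhc, Sdhd, Cyc1, Cycs and every symbol starting with Uqcr, Cox4, Cox5, Cox6, Cox7, Cox8 or Atp5. This gave 49 of the 24421 rows of the count table: 4 of complex II, 9 of complex III, cytochrome c, 18 of complex IV and 17 of complex V. RNA was sequenced in 6 libraries, 3 from C57BL/6 mice of 2 to 3 months (young) and 3 from C57BL/6 mice of 20 to 22 months (old). In both groups ILC2 were sorted from brain on their surface markers and then kept for 2 weeks in medium with 20% fetal calf serum, SCF, IL33, IL2 and IL7, so every library describes cells after culture and none describes freshly sorted cells. Whether replicate libraries stem from separate animals, pools or cultures is not stated in the labels, so p-values measure only the spread between libraries, which may be technical.

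The respiratory chain sits in the inner mitochondrial membrane. Complex II (succinate dehydrogenase) passes electrons from succinate to coenzyme Q, complex III passes them from coenzyme Q to cytochrome c, and complex IV (cytochrome c oxidase) passes them to oxygen, while complexes III and IV pump protons that drive ATP synthesis by complex V. Mitochondrial DNA encodes cytochrome b of complex III, the catalytic core of complex IV and membrane subunits of complex V, and its genes were not analysed here, and the smaller nuclear subunits of complex IV include tissue-specific or oxygen-regulated paralogs. ILC2 are tissue-resident lymphocytes that secrete IL-5 and IL-13 when stimulated by cytokines such as IL-33.

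Library totals ran from 16477157 to 20804291 counts, and 11805 genes passed the filter on low counts. TMM scaling, which estimates a factor per library so that most genes keep their level, gave factors of 1.12 to 1.18 in young and 0.84 to 0.885 in old libraries. All changes below are relative to that scaling, and the median log2 change over all genes tested was -0.10 with it and -0.52 when scaled by library totals alone. The summed level of 12 ILC2 markers was 14989 to 17244 CPM (counts scaled to the same library total, without TMM) in young and 11064 to 13147 in old libraries, and none of the 12 was at 0 in all libraries. The 8 markers of macrophages and microglia summed to 5.82 to 18.0 CPM in young and 51.2 to 80.5 CPM in old libraries. Tmem119 and P2ry12 led this sum and Csf1r and C1qa were at 0. The part of such cells in the results was not tested. T cell markers stayed at 15.3 CPM or less with Cd3e, Cd4 and Cd8a at 0, and all 4 NK cell and ILC1 markers were at 0. B cell markers reached 25.7 CPM in young and 51.6 CPM in old libraries, with 4 of 5 at 0. Mast cell and basophil markers summed to 272 to 318 CPM in young and 163 to 283 CPM in old libraries, with Mcpt4, Fcer1a and Ms4a2 at 0. The endothelial list gave 74.9 to 120 CPM in young and 111 to 141 CPM in old libraries, with Cdh5 and Cldn5 at 0, astrocyte and oligodendrocyte markers stayed at 43.2 CPM or less with Aqp4 and Mog at 0, and neuron markers at 4.18 CPM or less with Rbfox3 at 0.

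Promoter sequence was available for 38 of the 49 members in RefSeq (GRCm38.p6). Windows of 300 bases around the RefSeq start site were searched on both strands for the core of nuclear respiratory factor 1 (NRF1, GCGCATGC), the ETS core bound by GABP (CCGGAAG) and the hypoxia response core (ACGTG). The NRF1 core stood in 8 members (21.1%) and in 3.0% of the 27025 genes with a promoter, the ETS core in 12 (31.6%) against 9.9%, and the hypoxia core in 14 (36.8%) against 21.8%. A match describes letters only and is not a binding site. The 250 bases before the start site are shown for the paralogs Cox7a1 and Cox7a2, whose levels changed by different amounts, and for Cox6a1 and Uqcr11, strongly raised members with cores of both nuclear factors. Atp5k, which rose, and Sdhb and Atp5l, which did not pass the test given below, also held cores of both. Sequences read 5′ to 3′ on the gene's strand, and capitals mark matches to any of the 3 cores. Cox7a1 lies at chr7:30183921-30184170 (plus strand) and Cox7a2 at chr9:79759854-79760103 (minus). Cox6a1 lies at chr5:115348959-115349208 (minus) and Uqcr11 at chr10:80406822-80407071 (minus).
Cox7a1: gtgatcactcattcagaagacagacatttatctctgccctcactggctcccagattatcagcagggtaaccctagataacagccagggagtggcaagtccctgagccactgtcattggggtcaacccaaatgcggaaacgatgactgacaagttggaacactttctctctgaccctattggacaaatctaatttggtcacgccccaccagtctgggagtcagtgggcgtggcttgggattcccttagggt
Cox7a2: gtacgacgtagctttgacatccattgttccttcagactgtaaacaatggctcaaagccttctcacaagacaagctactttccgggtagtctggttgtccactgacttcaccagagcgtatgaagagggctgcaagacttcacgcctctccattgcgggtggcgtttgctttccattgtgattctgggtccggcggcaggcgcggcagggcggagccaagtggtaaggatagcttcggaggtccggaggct
Cox6a1: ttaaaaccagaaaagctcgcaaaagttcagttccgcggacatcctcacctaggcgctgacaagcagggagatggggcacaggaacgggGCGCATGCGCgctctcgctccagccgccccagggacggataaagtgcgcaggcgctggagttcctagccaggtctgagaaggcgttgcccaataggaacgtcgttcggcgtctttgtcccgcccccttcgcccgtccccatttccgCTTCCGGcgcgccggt
Uqcr11: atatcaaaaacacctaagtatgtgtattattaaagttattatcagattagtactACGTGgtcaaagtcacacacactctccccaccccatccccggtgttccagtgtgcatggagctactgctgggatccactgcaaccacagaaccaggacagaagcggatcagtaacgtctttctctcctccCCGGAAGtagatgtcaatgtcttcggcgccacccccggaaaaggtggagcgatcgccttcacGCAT
Neither Cox7a1 nor Cox7a2 held a match in these bases, and the only match in the Cox7a1 window, a hypoxia core at base 10 after the start site, lies beyond the printed stretch. Cox6a1 holds overlapping NRF1 cores on both strands, upstream of an ETS core close to the start site. Uqcr11 holds a hypoxia core and an ETS core, and the last 4 printed bases open an NRF1 core that continues into the transcript.

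Most transcripts of the chain were more abundant in old than in young cultures. Of the 45 members tested, 30 (66.7%) rose at an adjusted p under 0.05 by edgeR's quasi-likelihood test, where 11.2% of all genes tested rose. No member fell by that test, where 8.14% of all genes fell and 19.4% passed in either direction. At an unadjusted p under 0.05, 1 member (Sdha) was lower by edgeR and by DESeq2, and 2 (Sdha and Atp5b) by limma-voom, which called 1 of them (Sdha) after adjustment. The values of the old and young libraries did not overlap for 38 of 45 members (84.4%), 36 with old above and 2 with old below, where 38.2% of all genes did not overlap. The median log2 change of the members tested was 0.73, with a range from -0.60 to 3.41, and 13 members were at least 2-fold higher. Scaled by library totals alone, 19 members rose and 5 fell, and the median was 0.32 against -0.52 over all genes. The 4 members that were not tested were Cox6a2, Cox7b2, Cox8b and Cox8c, all tissue-restricted paralogs with few or no counts. In bulk samples, more cells with a high level and more RNA per cell cannot be told apart.

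Summed over all members, the chain stood at a mean of 19415 TMM-scaled CPM in young and 31956 in old libraries, a ratio of 1.65. Scaled by library totals alone, it took 2.24% of counts in young and 2.76% in old libraries, a ratio of 1.23. By complex, the ratio of the old to the young mean was largest for complex IV. Its members summed to 6447, 5802 and 7484 CPM in the young and 13115, 13996 and 13356 CPM in the old libraries, 2.05 times the young mean. Complex III summed to 3155, 3070 and 3760 CPM in young and 5558, 5786 and 5295 CPM in old libraries, a ratio of 1.67. Complex V summed to 8006, 7844 and 8523 CPM in young and 10486, 11361 and 11632 CPM in old libraries, a ratio of 1.37. Every old library exceeded every young one in each of these sums. Complex II summed to 1148, 1181 and 1282 CPM in young and 1565, 1414 and 1497 CPM in old libraries, a ratio of 1.24, again without overlap. Scaled by library totals alone, these ratios were 1.54 for complex IV, 1.25 for III, 1.03 for V and 0.93 for II, so the order of the complexes held while the sums of II and V overlapped between the groups. These sums carry no test.

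**Figure D1:**
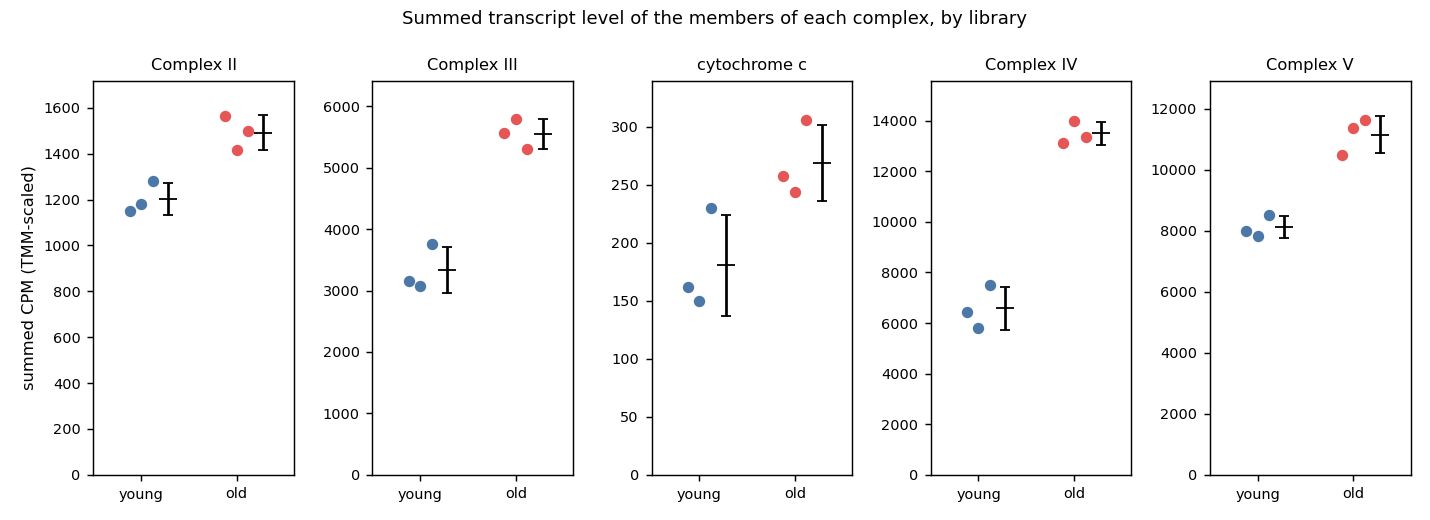
Summed TMM-scaled CPM of the members of each complex (y axis, from 0) in the 3 young (blue) and 3 old (red) libraries, with the mean and SD beside the points. The old libraries lie above the young ones in all 5 panels, with the widest gap for complex IV (6578 ± 849 against 13489 ± 455 CPM, SD, n = 3 each).

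Within complex II the membrane anchors Sdhc and Sdhd passed as higher, Sdhd only at the edge, and the catalytic subunits Sdha and Sdhb did not pass. Sdha, the flavoprotein that oxidises succinate, was at 156, 181 and 167 CPM in young and 108, 78.9 and 146 CPM in old libraries. It was the only complex II member whose old libraries all lay below the young ones, with a log2 change of -0.60 ± 0.22 (SE) and an adjusted p of 0.0808 by edgeR. Its call depended on 1 library: without old replicate 3 the log2 change was -0.85 with an edgeR adjusted p of 0.0197. With offsets for transcript length and GC content it was -0.08 (adjusted p = 0.854, edgeR). Sdhb, the iron-sulfur subunit that accepts electrons from Sdha, measured 531, 553 and 587 CPM in young and 705, 634 and 626 CPM in old libraries. The groups did not overlap, and the log2 change of 0.23 ± 0.12 (adjusted p = 0.218, edgeR) did not pass. Its sign turned when scaled by library totals alone (-0.18) and with offsets for transcript length and GC content (-0.05).

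Sdhc, a membrane anchor that binds heme and coenzyme Q with Sdhd, measured 140, 140 and 126 CPM in young and 273, 258 and 241 CPM in old libraries. This was the clearest rise of the complex, at a log2 change of 0.93 ± 0.14 (adjusted p = 0.00118, edgeR). With length and GC offsets Sdhc kept its call (0.49, adjusted p = 0.0265, edgeR). Sdhd measured 322, 308 and 402 CPM in young and 480, 443 and 484 CPM in old libraries, also without overlap. Its log2 change of 0.45 ± 0.14 lay at the edge of the threshold (adjusted p = 0.0483, edgeR), and the call was lost without any 1 of 5 of the 6 libraries, young replicate 3 being the exception. Scaled by library totals alone the Sdhd log2 change was 0.04. With length and GC offsets it was 0.40 and did not pass (adjusted p = 0.0507, edgeR). Per kilobase of transcript the young means were 58.0 CPM for Sdha, 488 for Sdhb, 166 for Sdhc and 279 for Sdhd, so the subunits, which form the complex in equal number, were read at unequal transcript levels. Of the 4 assembly factors of complex II, Sdhaf4, which acts on Sdha before it joins Sdhb, rose from 63.1 to 97.7 CPM (log2 change 0.63 ± 0.20, adjusted p = 0.0459, edgeR) and the other 3 did not pass. With length and GC offsets Sdhaf4 was at 0.22 (adjusted p = 0.461, edgeR), and Sdhaf1, which protects the iron-sulfur centres of Sdhb, passed instead (1.17, adjusted p = 0.0122, edgeR).

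In complex III, 6 of 9 members rose, with a median log2 change of 0.63 over the 9. The rises were in the small supernumerary subunits and in Cyc1, and the large core proteins did not pass. With length and GC offsets Uqcrq, Uqcrh and Uqcrfs1 passed as higher. Uqcr11 (adjusted p = 0.112), Uqcr10 (0.747), Uqcrb (0.795) and Cyc1 (0.0652) then did not pass by edgeR. Uqcrq, a small subunit that contacts the mitochondrially encoded cytochrome b, measured 562, 515 and 671 CPM in young and 1451, 1581 and 1325 CPM in old libraries. It had the largest log2 change of the complex at 1.32 ± 0.14 (adjusted p = 9.6e-05, edgeR). Uqcr11 measured 310, 282 and 361 CPM in young and 795, 735 and 612 CPM in old libraries (log2 change 1.17 ± 0.15, adjusted p = 0.000397, edgeR). Uqcrh, the acidic hinge protein between cytochrome c1 and cytochrome c, measured 326, 271 and 370 CPM in young and 569, 644 and 626 CPM in old libraries (log2 change 0.93 ± 0.15, adjusted p = 0.00125, edgeR). In none of these 3 genes did the groups overlap. Uqcrb, another small subunit near cytochrome b, measured 250, 228 and 335 CPM in young and 410, 455 and 431 CPM in old libraries (log2 change 0.67 ± 0.16, adjusted p = 0.0143, edgeR). Uqcr10 followed with a log2 change of 0.63 ± 0.13 (adjusted p = 0.00632, edgeR).

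Cyc1 encodes cytochrome c1, the heme protein of complex III that reduces cytochrome c. It measured 323, 353 and 326 CPM in young and 543, 489 and 397 CPM in old libraries, without overlap (log2 change 0.51 ± 0.15, adjusted p = 0.0308, edgeR). The Rieske iron-sulfur protein Uqcrfs1 was also higher in every old library but did not pass without offsets (log2 change 0.56 ± 0.19, adjusted p = 0.0616, edgeR). With length and GC offsets it passed (0.58, adjusted p = 0.0355, edgeR). The core proteins Uqcrc1 and Uqcrc2, large matrix-side subunits, overlapped between groups, with log2 changes of -0.24 ± 0.14 and -0.29 ± 0.18 (adjusted p = 0.283 and 0.301, edgeR). The count of raised members fell from 6 to 3 without young replicate 1, where Cyc1, Uqcr10 and Uqcrb no longer passed. The Cyc1 call was also lost without young replicate 2 or old replicate 1 or 2, and that of Uqcrb without young replicate 2 or old replicate 2. Among 6 assembly factors of complex III, Uqcc2, which acts in cytochrome b assembly, rose from 202 to 402 CPM (log2 change 0.99 ± 0.15, adjusted p = 0.0009, edgeR) and the other 5 did not pass. Uqcc2 was at 0.19 with length and GC offsets (adjusted p = 0.5, edgeR), while Uqcc1, which acts with it, passed as lower (-0.98, adjusted p = 0.0397, edgeR).

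Cycs, the soluble electron carrier between complexes III and IV that also triggers caspase activation when released, measured 162, 150 and 230 CPM in young and 258, 244 and 306 CPM in old libraries. The old values lay above the young ones, yet the log2 change of 0.58 ± 0.19 missed the threshold (adjusted p = 0.0545, edgeR). With offsets for transcript length and GC content it was 0.96 ± 0.15 and passed (adjusted p = 0.00179, edgeR). Of the Cycs transcript's 75-base windows, 26.1% occur in other annotated genes, so its count is uncertain. Hccs, which attaches heme to cytochromes c and c1, went the other way, from 92.5 to 47.1 CPM (log2 change -0.97 ± 0.22, adjusted p = 0.00991, edgeR). In the list of heme attachment and coenzyme Q synthesis that holds Hccs, 2 of 13 tested genes fell, where 8.14% of all genes fell. The second was Coq5, a methyltransferase of coenzyme Q synthesis (log2 change -0.97 ± 0.27, adjusted p = 0.0276, edgeR), and the other 11 did not pass. With length and GC offsets Hccs kept its call (-0.79, adjusted p = 0.0178, edgeR), Coq5 did not (adjusted p = 0.0797), and 2 genes of the list, Coq4 and Adck3, passed as higher.

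Complex IV held the broadest rise. Of its 18 members 14 were tested and 12 rose, with a median log2 change of 1.07 over the 14, and 9 were at least 2-fold higher. All 14 were among the 2341 genes with the shortest transcripts. Of all genes that short 30.7% rose, and their median log2 change was 0.50. Apart from 2 low-abundance paralogs, the log2 changes of the other 10 called members ran from 0.64 (Cox4i1) to 1.21 (Cox6c). With length and GC offsets these 10 ran from 0.04 (Cox4i1) to 0.72 (Cox7b). Cox4i1 (adjusted p = 0.849), Cox8a (0.118) and the low-abundance Cox4i2 (0.0976) then lost the call by edgeR. Cox6c measured 624, 508 and 797 CPM in young and 1415, 1553 and 1500 CPM in old libraries (log2 change 1.21 ± 0.16, adjusted p = 0.000445, edgeR). Cox6b1, which faces the intermembrane space and joins the monomers of the dimer, measured 896, 704 and 1187 CPM in young and 1996, 2082 and 2069 CPM in old libraries (log2 change 1.14 ± 0.17, adjusted p = 0.000865, edgeR). The lowest old library of each of these genes stood well above the highest young one. Cox8a, the ubiquitous form of subunit VIII, measured 663, 570 and 792 CPM in young and 1370, 1553 and 1504 CPM in old libraries (log2 change 1.13 ± 0.14, adjusted p = 0.000323, edgeR). Cox6a1, the ubiquitous form of subunit VIa, measured 974, 957 and 1069 CPM in young and 2232, 2250 and 1940 CPM in old libraries (log2 change 1.10 ± 0.12, adjusted p = 9.9e-05, edgeR). Cox5a, Cox5b and Cox7c lay in the same range of log2 changes, from 0.93 to 1.09, and rose too. Where 12.8% of the exon length of Cox5a overlaps a gene on the opposite strand and 50.4% of the 75-base windows of Cox7c occur in other genes, their counts are less certain. The same holds in other complexes for shared windows of Atp5h (40.3%) and Uqcrb (29.1%). It also holds for opposite-strand overlap of Uqcrc2 (19.7%), Atp5o (18.1%) and Atp5j (12.7%). In all, 7 members shared at least 25% of their windows and 5 had exon overlap of at least 10%.

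Most complex IV subunits with paralogs were read almost wholly from the ubiquitous gene in both groups. Shares within a family are of summed CPM per kilobase, so that genes of unequal length can be set side by side. Cox4i1 and Cox4i2 encode the constitutive and the oxygen-regulated form of subunit IV, at chr8:120668222-120674207 and chr2:152754173-152765037, both on the plus strand. Cox4i1 measured 967, 950 and 939 CPM in young and 1491, 1584 and 1386 CPM in old libraries (log2 change 0.64 ± 0.11, adjusted p = 0.00211, edgeR). Cox4i2 was at 1.72, 3.34 and 0 CPM in young and 25.5, 12.2 and 16.5 CPM in old libraries, from 33, 82 and 0 against 385, 181 and 259 counts. Thus all old libraries exceeded all young ones, and the fitted log2 change was 3.41 ± 1.06 (adjusted p = 0.0451, edgeR). That call was lost without young replicate 1 (adjusted p = 0.119) or without any 1 old library (0.123, 0.0681 and 0.0841, all edgeR). Even so the share of Cox4i2 in the family only went from 0.180% ± 0.180 to 1.24% ± 0.47 (SD, n = 3 each).

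Cox7a1, the heart and muscle form of subunit VIIa, had the second largest log2 change of the members, after Cox4i2. The gene lies at chr7:30184144-30186078 on the plus strand of GRCm38 (GENCODE), and shares no 75-base window with another gene. It measured 6.63, 3.46 and 7.89 CPM in young and 56.9, 67.4 and 38.7 CPM in old libraries, from 127, 85 and 155 against 858, 1000 and 609 counts. The lowest old value was several times the highest young one, and the log2 change was 3.18 ± 0.39 (adjusted p = 0.000298, edgeR), 9.07-fold by group means. The call held in every alternative run, with log2 changes from 2.47 to 3.46. The ubiquitous form Cox7a2 measured 541, 500 and 682 CPM in young and 1095, 1260 and 1215 CPM in old libraries (log2 change 1.05 ± 0.14, adjusted p = 0.000528, edgeR). Cox7a2l, which is no regular subunit but helps join complex III and IV into supercomplexes, measured 76.4, 69.2 and 95.3 CPM in young and 118, 111 and 120 CPM in old libraries. Its groups did not overlap, but the log2 change of 0.53 ± 0.18 did not pass (adjusted p = 0.0666, edgeR). Within this family the share of Cox7a1 went from 1.56% ± 0.43 to 6.73% ± 1.68, that of Cox7a2l from 7.76% ± 0.04 to 5.28% ± 0.51 and that of Cox7a2 from 90.7% ± 0.46 to 88.0% ± 1.61 (SD, n = 3 each). Family shares carry no test.

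The remaining paralogs were low or not detected. Cox6b2, a testis form of subunit VIb, measured 11.2, 14.1 and 11.2 CPM in young and 13.1, 14.1 and 12.1 CPM in old libraries, overlapping throughout (log2 change 0.11 ± 0.41, adjusted p = 0.897, edgeR). Scaled by library totals alone its log2 change was -0.31, and with length and GC offsets it was -0.57. Cox6a2, a muscle form, had 0 counts in all young libraries and in old replicate 1, and 40 and 23 counts in the other old libraries. Cox7b2 had 14 counts in young replicate 1 and 0 elsewhere, while Cox7b, its ubiquitous paralog, measured 466, 360 and 564 CPM in young and 927, 1016 and 921 CPM in old libraries (log2 change 1.04 ± 0.16, adjusted p = 0.00118, edgeR). Cox8b and Cox8c had no counts in any library. A count of 0 over the 3 libraries of a group allows a level of up to 0.0548 CPM in young and 0.0568 CPM in old libraries, counting error only, at 3 counts over the group.

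**Figure D2:**
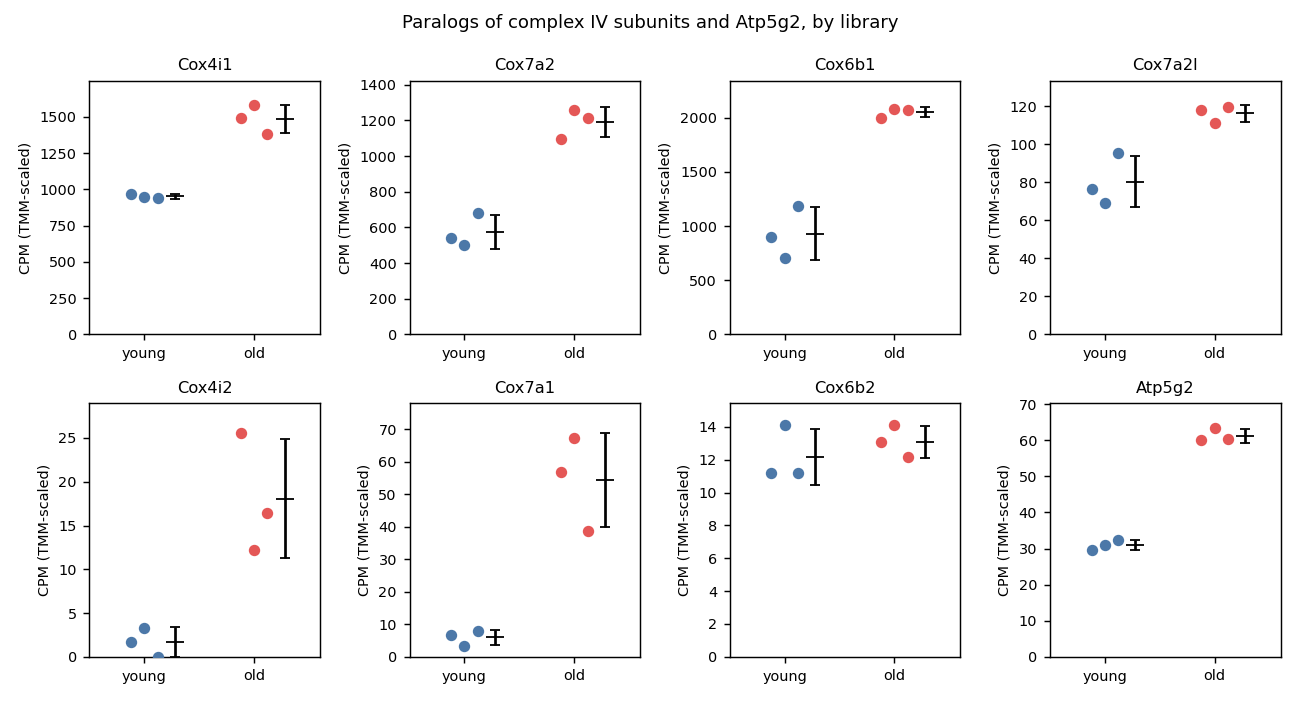
TMM-scaled CPM (y axis, from 0, its own range in each panel) of 7 complex IV genes of paralog families and of Atp5g2 in the 3 young (blue) and 3 old (red) libraries, with mean and SD. Cox4i2 and Cox7a1 stay below 8 CPM in every young library and above 12 CPM in every old one, while Cox6b2 overlaps between the groups.

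Genes that build or modify complex IV were mixed. Of 22 tested assembly factors 7 rose and 1 fell, with a median log2 change of 0.48. Of all genes 11.2% rose and 8.14% fell, and of the genes with the shortest transcripts 30.7% rose. With length and GC offsets 3 of the 22 rose, Cox14 and Cox17 among them, where 10.7% of all genes rose. The median was then 0.13, and Pet100 (adjusted p = 0.101) and Cox15 (0.369) no longer passed by edgeR. Cox14, which stabilises newly made Cox1, rose from 155 to 312 CPM (log2 change 1.01 ± 0.15, adjusted p = 0.000847, edgeR). Cox17, the copper chaperone of the intermembrane space, rose from 298 to 594 CPM (log2 change 0.998 ± 0.16, adjusted p = 0.00155, edgeR). Pet100 rose by 1.03 ± 0.21 on the log2 scale (adjusted p = 0.00534, edgeR). Cox15, which makes heme A, fell from 24.4 to 9.82 CPM (log2 change -1.31 ± 0.37, adjusted p = 0.0292, edgeR). Among 4 tested accessory and hypoxia-related genes, 2 rose. Higd1a, a hypoxia-inducible protein that associates with complex IV, measured 121, 88.7 and 128 CPM in young and 774, 902 and 650 CPM in old libraries. It rose by 2.78 ± 0.19 on the log2 scale (adjusted p = 5.8e-06, edgeR), and by 2.36 with length and GC offsets. Its relative Higd2a rose by 0.93 ± 0.16 (adjusted p = 0.00244, edgeR), a call lost with the offsets (0.0638). Ndufa4, now counted as a subunit of complex IV, had a log2 change of 0.36 ± 0.17 and overlapped between groups (adjusted p = 0.189, edgeR). Lonp1, the matrix protease that degrades Cox4i1, was at 0.03 ± 0.28 (adjusted p = 0.961, edgeR), and Ndufa4l2, the oxygen-regulated relative of Ndufa4, was too low to test at under 1 CPM in every library.

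In complex V, 10 of 17 members rose, with a median log2 change of 0.66. Among the enzyme's subunits, alpha, beta and gamma of the catalytic head and its shaft had the lowest log2 changes, and epsilon, also of the shaft, had the highest. Atp5b, the catalytic beta subunit, measured 1877, 1938 and 1739 CPM in young and 1549, 1517 and 1686 CPM in old libraries. All old values lay below the young ones, and the log2 change was -0.23 ± 0.11 (adjusted p = 0.181, edgeR, not passed). The alpha subunit Atp5a1 and the gamma shaft subunit Atp5c1 overlapped between groups, at log2 changes of -0.16 ± 0.12 and 0.07 ± 0.14 (adjusted p = 0.42 and 0.795, edgeR). Atp5f1, the stator subunit b, was higher in each old library without passing (log2 change 0.33 ± 0.14, adjusted p = 0.128, edgeR). Scaled by library totals alone, Atp5b (-0.64) and Atp5a1 (-0.58) passed as lower in old, as did Uqcrc1 (-0.66), Uqcrc2 (-0.70) and Sdha (-1.01). With length and GC offsets none of these 5 passed by edgeR, at -0.01 for Atp5b (adjusted p = 0.962), 0.25 for Atp5a1 (0.155), -0.36 for Uqcrc1 (0.161), -0.13 for Uqcrc2 (0.618) and -0.08 for Sdha (0.854).

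The called members outside the subunit c family rose by 0.55 (Atp5o) to 1.03 (Atp5e) on the log2 scale. With length and GC offsets Atp5h and Atp5j kept the call. Atp5e (adjusted p = 0.134), Atp5k (0.457), Atp5j2 (0.0946), Atp5d (0.826) and Atp5o (0.587) lost it by edgeR. Atp5e, the epsilon subunit of the shaft's foot, measured 391, 299 and 414 CPM in young and 652, 792 and 816 CPM in old libraries (log2 change 1.03 ± 0.16, adjusted p = 0.00103, edgeR). Atp5k, subunit e of the membrane part that takes part in dimer formation, measured 185, 160 and 183 CPM in young and 272, 360 and 441 CPM in old libraries (log2 change 1.02 ± 0.18, adjusted p = 0.00286, edgeR). Neither gene overlapped between groups. Atp5j2, subunit f, measured 587, 543 and 699 CPM in young and 1102, 1224 and 1257 CPM in old libraries (log2 change 0.97 ± 0.13, adjusted p = 0.000551, edgeR). Atp5h, subunit d of the peripheral stalk, rose by 0.94 and Atp5j, coupling factor 6, by 0.79. Atp5d, the delta subunit of the shaft's foot, rose by 0.57 ± 0.13 (adjusted p = 0.012, edgeR) and Atp5o, the protein that ties stator to head, by 0.55 ± 0.15 (adjusted p = 0.0237, edgeR). The Atp5d call was lost without young replicate 1 or old replicate 1 or 2, and that of Atp5o without young replicate 1 or 2 or old replicate 2 or 3. Atp5l, subunit g, had a log2 change of 0.66 ± 0.33 (adjusted p = 0.195, edgeR) at only 14.9 to 29.9 CPM, and 63.4% of its 75-base windows occur in 9 other annotated genes.

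The genes Atp5g1, Atp5g2 and Atp5g3 encode the same mature ring subunit c with different import sequences. Atp5g3 measured 892, 911 and 885 CPM in young and 1428, 1480 and 1566 CPM in old libraries (log2 change 0.73 ± 0.11, adjusted p = 0.00084, edgeR). Atp5g1 measured 250, 233 and 278 CPM in young and 426, 445 and 431 CPM in old libraries (log2 change 0.77 ± 0.13, adjusted p = 0.00209, edgeR). Atp5g2 measured 29.5, 31.1 and 32.4 CPM in young and 60.0, 63.3 and 60.2 CPM in old libraries (log2 change 0.98 ± 0.22, adjusted p = 0.00915, edgeR). All of them rose without overlap, and the make-up of the family stayed close: Atp5g3 gave 74.2% ± 1.78 in young and 73.1% ± 0.98 in old libraries, Atp5g1 21.7% ± 1.72 and 22.0% ± 0.77, and Atp5g2 4.15% ± 0.14 and 4.86% ± 0.21 (SD, n = 3 each). Every 75-base window of the Atp5g2 transcript, and 50.4% of those of Atp5g1, also occur in another annotated gene, so these shares depend on how shared reads were counted. With length and GC offsets Atp5g3 kept its call (adjusted p = 0.0378), while Atp5g1 (0.264) and Atp5g2 (0.553) lost theirs by edgeR. Atp5s and Atp5sl, named after ATP synthase but no part of the enzyme, overlapped between groups. Atp5s measured 13.0, 7.29 and 27.5 CPM in young and 22.7, 19.4 and 15.5 CPM in old libraries (log2 change 0.27 ± 0.48, adjusted p = 0.76, edgeR). Atp5sl measured 22.1, 16.5 and 14.2 CPM in young and 25.3, 11.5 and 15.6 CPM in old libraries (log2 change -0.01 ± 0.41, adjusted p = 0.987, edgeR).

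**Figure D3:**
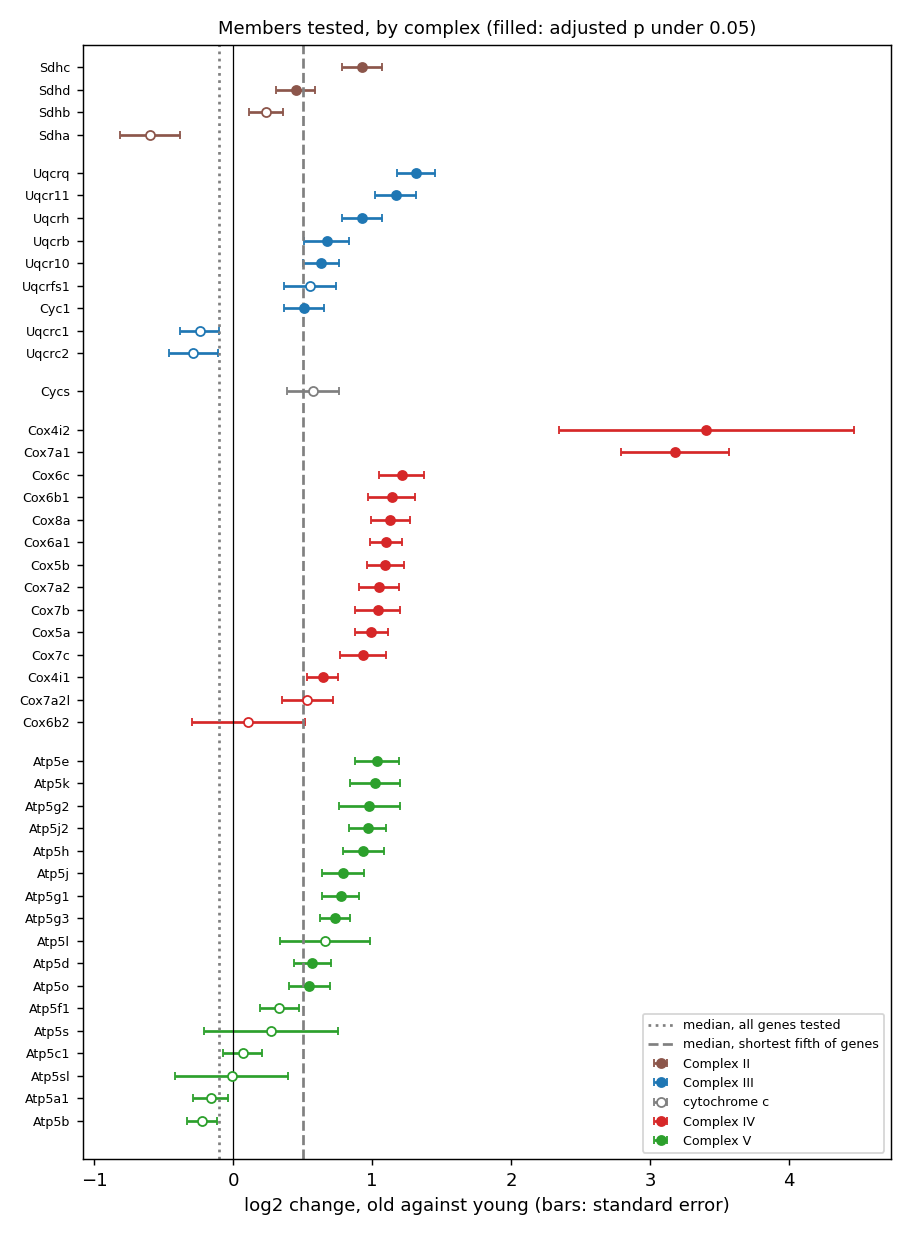
Log2 change of old against young (x axis) with its standard error for the 45 members tested, sorted within each complex, filled where the edgeR adjusted p was under 0.05. Vertical lines mark the median of all genes tested (-0.10, dotted) and of the 2341 genes with the shortest transcripts (0.50, dashed); the 30 filled points all lie right of 0.

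Around ATP synthase, 3 of 6 tested assembly, accessory and inhibitor genes rose, where 11.2% of all genes and 30.7% of the genes with the shortest transcripts rose. The 3 genes are named next. These were 2010107E04Rik, the small subunit also called 6.8 kDa proteolipid (log2 change 1.36 ± 0.14, adjusted p = 0.000108, edgeR), the dimer subunit Usmg5 (0.97 ± 0.16, adjusted p = 0.00161, edgeR) and Atpif1. Atpif1 encodes the inhibitor that stops the enzyme from running backwards, and measured 871, 751 and 966 CPM in young and 1131, 1171 and 1281 CPM in old libraries (log2 change 0.47 ± 0.13, adjusted p = 0.0254, edgeR). With length and GC offsets 1 of the 3, 2010107E04Rik, kept its call, while Usmg5 was at 0.32 (adjusted p = 0.0868, edgeR) and Atpif1 at -0.05 (0.792). Of 6 carriers and channels, the adenine nucleotide translocators Slc25a4 (log2 change 0.76 ± 0.13, adjusted p = 0.00248, edgeR) and Slc25a5 (0.48 ± 0.13, adjusted p = 0.0257, edgeR) rose, and both passed with the offsets too. The phosphate carrier Slc25a3 and the 3 Vdac channels did not pass.

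Other entries to coenzyme Q and nuclear regulators are set beside all genes tested, of which 19.4% passed in either direction (11.2% rose and 8.14% fell). Of 5 tested donors besides complex II, Etfb, a subunit of the electron transfer flavoprotein, rose by 0.52 ± 0.13 (adjusted p = 0.0187, edgeR), and the list median was -0.55. Etfb was at 0.01 with length and GC offsets (adjusted p = 0.965, edgeR) and the list median at -0.09. Of 11 tested regulators of respiratory genes and mitochondrial transcription 2 fell, with a list median of -0.17, or 0.13 with length and GC offsets. Polrmt, the mitochondrial RNA polymerase, measured 24.5, 38.3 and 10.5 CPM in young and 8.62, 4.18 and 7.44 CPM in old libraries (log2 change -1.86 ± 0.53, adjusted p = 0.0305, edgeR). Pprc1, a coactivator related to PGC-1alpha, had a log2 change of -1.37 ± 0.42 and fell (adjusted p = 0.043, edgeR). Neither passed with the length and GC offsets (adjusted p = 0.0576 and 0.272, edgeR). Nrf1 (log2 change 0.09 ± 0.34), Gabpa (-0.04 ± 0.22) and Ppargc1b (0.84 ± 1.29) overlapped between groups, and Tfam, which packages mitochondrial DNA, was at 0.56 ± 0.26 without overlap, with edgeR adjusted p-values of 0.899, 0.933, 0.722 and 0.156.

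Members whose promoter held a core were not uniformly the raised ones. Of 8 tested members with an NRF1 core 4 rose, against 19 of 28 without it. Of 12 with an ETS core 10 rose, among them Uqcr11 and Cox6a1 shown above, against 13 of 24 without it. Of 13 with a hypoxia core 7 rose, Cox7a1 among them, against 16 of 23 without it. These counts carry no test.

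The size of a member's change went with the length of its transcript. Across all genes tested with a length, Spearman's rho between transcript length and log2 change was -0.36 (11703 genes). Over the 45 members it was -0.72, with -0.94 for the 17 of complex V, -0.80 for the 9 of complex III and -0.30 for the 14 of complex IV, as a description over genes that share 6 libraries. The longest member was Cycs at 3123 bases, followed by 5 catalytic or core subunits (Sdha at 2900 bases, Atp5a1 at 2471, Atp5b at 1916, Uqcrc2 at 1896 and Uqcrc1 at 1653). For those 5 subunits role and length cannot be told apart. Of the members, 33 were among the 2341 genes with the shortest transcripts (1 of 5 genes tested, up to 1223 bases), and these held all 14 tested members of complex IV. Of these 33 members 28 rose, where 30.7% of all genes that short rose and 3.89% fell. Their median log2 change was 0.94, against 0.50 for all short genes. Of the 12 longer members 2 rose, where 6.39% of all longer genes rose, with a median log2 change of 0.13 against -0.24.

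**Figure D4:**
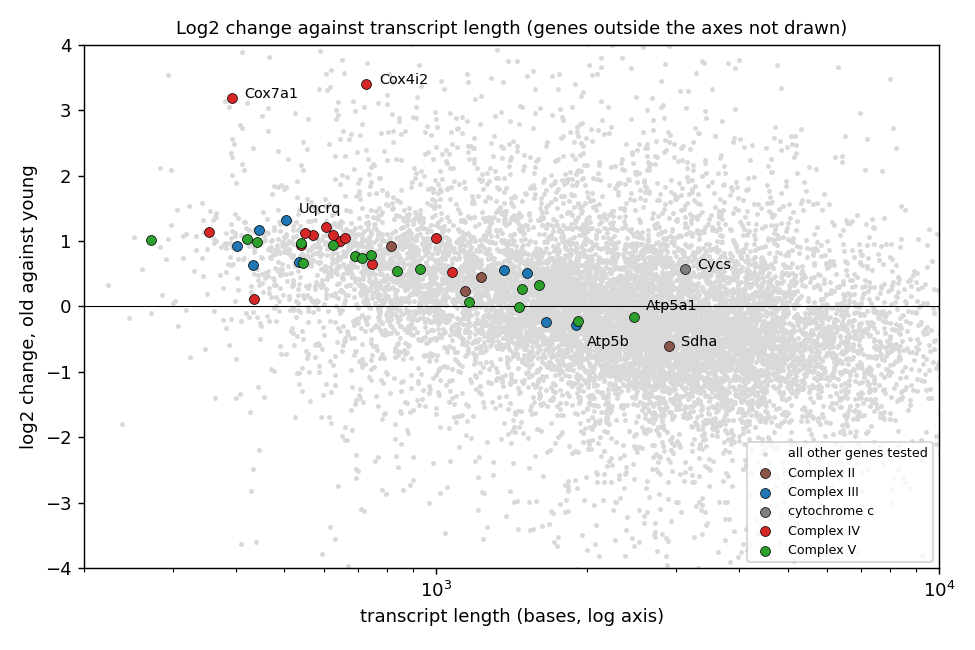
Log2 change of old against young (y axis) against transcript length in bases (x axis, log scale) for the members (coloured by complex) and all other genes tested within the axes (grey). Members over 1500 bases lie between -0.60 and 0.58, and 33 of the 45 members have up to 1223 bases, with Cox7a1 and Cox4i2 above 3.

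With offsets that take out a smooth trend of length and GC content in each library, 18 of the 45 members rose, where 10.7% of all genes rose and 4.91% fell. No member fell by edgeR with these offsets, and at an unadjusted p under 0.05 Uqcrc1 was the 1 lower member. Of the 30 members that rose without offsets 15 kept the call, and the others that passed were Cycs, Uqcrfs1 and Atp5f1. The median log2 change of all 45 members tested was 0.35 with the offsets, against 0.09 over all genes and 0.07 over the 2341 short genes. By complex, 9 members of IV, 4 of V, 3 of III, 1 of II (Sdhc) and Cycs rose. Uqcrq (0.85 ± 0.11, adjusted p = 0.000346, edgeR), Cox7b (0.72 ± 0.10, adjusted p = 0.000801, edgeR), Cox7a2 (0.62 ± 0.11, adjusted p = 0.00269, edgeR) and Cox7a1 (2.47 ± 0.35, adjusted p = 0.000761, edgeR) were among those that kept it. Cox4i1 fell back to 0.04 ± 0.09 (adjusted p = 0.849, edgeR), and Uqcr10 (-0.08) and Atp5d (-0.05) changed sign. The offsets remove any part of the old against young difference that runs along length or GC content, whatever its source, and the source was not tested.

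**Figure D5:**
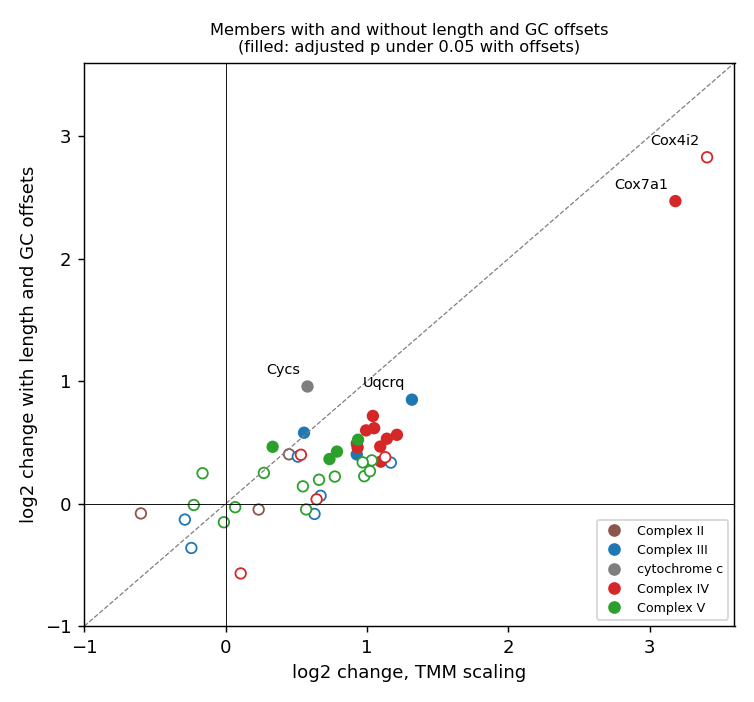
Log2 change of each member with TMM scaling (x axis) and with length and GC offsets (y axis), coloured by complex and filled where the edgeR adjusted p with offsets was under 0.05; the dashed line marks equal values. Most members lie below the line, Cycs lies above it (0.58 against 0.96), and 18 points are filled.

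The nuclear subunit genes of complex I, the other entry to the chain, moved in the same direction. Of 35 tested Nduf genes 29 rose and 2 fell, with a median log2 change of 0.86, and the median was 0.33 with length and GC offsets. That difference from the 45 members of complexes II to V (medians 0.73 and 0.35) was not tested.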

How the data were processed

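RNA of 6 libraries was sequenced as single-end 75 base reads. The authors deposited raw counts in 1 table, as whole numbers per gene symbol and not normalized. The build mm10 and the tools STAR 2.5.3a, DESeq2 1.1, Cufflinks 2.0, bcl2fastq 2.20.0.422 and FastQC 1.0.0 are listed, with no role, by the submitters' processing notes. Which of them counted reads, and with what annotation and strand setting, is not given in the sources used here, so reads of overlapping, antisense and near-identical genes cannot be told apart. All 6 sample columns were matched to labels by name (0 left out). No row starts with mt-. Symbols of 27 rows had been turned into dates (0.153% of counts), and these rows stayed in library sizes.

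The members and gene lists were chosen with earlier results of these data known. The analysis ran edgeR 4.0.16 under R 4.3.3: filterByExpr (minimum count 10, minimum total 15) kept 11805 of 24421 genes (48.3%), libraries were TMM-scaled, and glmQLFit with glmQLFTest compared old against young, without a block. P-values were Benjamini-Hochberg adjusted over all genes tested, at a threshold of 0.05. An SE is the absolute log2 change over the square root of its F statistic. CPM were TMM-scaled unless said otherwise. The common biological coefficient of variation was 53%. On simulated data of this comparison (11425 genes, 200 changed), the test found 13% of 2-fold and 53% of 4-fold changes, with 1.5% false calls. Medians, sums, family shares and promoter matches carry no test.

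Transcript lengths, GC content and shared 75-base windows came from GENCODE vM21 (GRCm38), taking the protein-coding transcript of median length, for 98.3% of rows and all 49 members. Length and GC offsets came from a smooth fit per library with mgcv 1.9.3. Named members were all of complex II, Cyc1 and Cycs, the 4 largest rises and falls past the threshold per larger complex, members of paralog families with counts, and Atp5s, Atp5sl and Cox7a2l. From other lists up to 3 called genes of smallest p were named, with 9 genes named whatever their p. Members outside that rule are given more briefly. Alternatives were library totals, DESeq2 size factors and upper quartile as scaling, no filter or at least 1 CPM in 3 libraries, DESeq2 1.42.0, limma-voom (limma 3.58.1), robust dispersion, a replicate block, length and GC offsets with and without that block, and leaving out each library.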

Additional observations from a re-analysis of the deposited data

How the results depend on the processing

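The count of 30 raised members became 19 with library totals as the sole scaling, 18 with length and GC offsets and 17 with those offsets and the replicate block, and ran from 23 to 34 when each library was left out. Members called lower went from 0 to 5 with library totals and to 1 with limma-voom, and ran from 0 to 1 over the libraries left out. The median log2 change of 0.73 became 0.32, 0.35 and 0.35 (0.354 with offsets, 0.350 with the block as well), and ran from 0.70 to 0.90. Raised members of complex III went from 6 to 3, 3 and 2 under the same settings (3 to 7 over the libraries left out), and those of complex V from 10 to 5, 4 and 3 (8 to 11). Those of complex IV went from 12 to 10, 9 and 10 (11 to 13 over the libraries left out), and to 14 with DESeq2. Over all genes, 1325 rose and 961 fell with TMM, against 717 and 2381 with library totals. With the replicate block alone, 29 members rose with a median of 0.73. Libraries of the same number correlated at 0.02, 0.009 and 0.041 in their deviations from the group means, so the numbers give no pairing.

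Of the 30 calls, 30 were kept with DESeq2 size factors, the CPM filter, DESeq2, limma-voom and robust dispersion, 29 with upper quartile scaling and with no filter, 28 with the replicate block and 19 with library totals. The sign turned with library totals, offsets, and offsets with the replicate block in Sdhb (-0.182, -0.047, -0.047), Cox6b2 (-0.314, -0.569, -0.554) and Atp5c1 (-0.347, -0.028, -0.029). With the offsets, without and with the block, it turned in Uqcr10 (-0.083, -0.087), Atp5d (-0.046, -0.046) and Atp5a1 (0.249, 0.251). It turned with library totals in Atp5f1 (-0.081) and Atp5s (-0.132). Atp5sl, near 0, was at 0.023 with DESeq2 size factors, 0.031 with upper quartile scaling, 0.021 with DESeq2, and 0.207 and 0.062 without young replicate 1 or old replicate 3. Over the libraries left out, Atp5c1 ran from -0.002 (old replicate 3) to 0.183 (young replicate 3), Atp5s from -0.068 (young replicate 2) to 0.952 (young replicate 3) and Atp5sl from -0.376 (old replicate 1) to 0.214 (old replicate 2). The cause was not tested. In data simulated from all genes tested, with 3 libraries a group, changes near 2-fold were often missed. How often this holds for the members alone was not simulated. Members at low CPM (Cox4i2, Atp5s, Atp5l) are measured with wide errors.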
